A study of Mus musculus with 16 samples.

Results

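The 10 genes described here are mouse TRAF adaptors and partners through which LMP1 is known to signal. They are Cd40, Traf1, Traf2, Traf3, Traf5, Traf6, Tradd, Map3k14, Birc3 and Tnfaip3. Traf4 and Traf7 are not among them and belong to a list of other TRAF proteins described below. The 10 were chosen by name and matched to the gene symbols of the count tables. All 10 were found among 24421 genes in the 5 tables of tumour organoids and among 51912 entries in the table of normal organoids. RNA was sequenced from 16 libraries of C57BL/6 mouse organoids, which are cell cultures grown in 3 dimensions. Tumours had formed in recipient mice after transplantation into the nasopharynx. The tumour genotype TMP combines Trp53-/-, Myc and sgCdkn2a, a guide RNA against Cdkn2a, and was sequenced as Ctr (n = 3) and as Lung-Ctr (n = 2). TMPL carries the same 3 changes together with LMP1 and was sequenced as LMP1 (n = 2) and as Lung-LMP1 (n = 3). Normal_nasopha (n = 3) and Normal_lung (n = 3) are untreated organoids of normal nasopharynx and lung. The labels do not say how LMP1 or Myc was introduced, how many clones a group holds, or how old the mice were. Primary and metastasized organoids of both genotypes are named in the design text, but the sample descriptions mark all TMP libraries as primary and all TMPL libraries as metastatic. Groups are therefore called by title here, and what the prefix Lung stands for was taken as unknown.

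LMP1 is a membrane protein of Epstein-Barr virus that signals without a ligand, much as an always active CD40 receptor would. Its cytoplasmic tail recruits TRAF proteins, adaptors named for TNF receptor-associated factors, and the adaptor TRADD, which binds the death domains of TNF receptors. From these complexes signals pass to the canonical NF-kB pathway through the IKK kinases, to the noncanonical pathway through the kinase NIK (gene Map3k14), and to JNK and p38. Traf1, Birc3, Tnfaip3 and Cd40 are also known targets of NF-kB, so their RNA is commonly read as an output of the pathway, while TRAF2, TRAF3, TRAF6, TRADD and NIK are regulated largely as proteins. Nasopharyngeal carcinoma is an epithelial tumour in which LMP1 and losses of inhibitors such as TRAF3 and A20 (gene Tnfaip3) are well known.

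The 4 promoters shown are those of the members whose levels set the results apart: Tnfaip3 and Birc3, which varied together across tumour libraries, and Traf1 and Traf3, which differed between normal nasopharynx and lung. Sequences are RefSeq's (GRCm38.p6), printed 5′ to 3′ on the strand of the gene and limited to bases before the start site that lie in no exon of that gene in GENCODE vM21. Capitals mark matches, on either strand, to the NF-kB consensus or to TGANTCA (a form of the AP-1 site).
Tnfaip3, chr10:19015411-19015547, minus strand: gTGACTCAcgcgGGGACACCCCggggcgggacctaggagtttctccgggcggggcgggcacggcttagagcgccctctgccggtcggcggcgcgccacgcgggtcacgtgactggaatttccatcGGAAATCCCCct
Birc3, chr9:7873187-7873420, minus strand: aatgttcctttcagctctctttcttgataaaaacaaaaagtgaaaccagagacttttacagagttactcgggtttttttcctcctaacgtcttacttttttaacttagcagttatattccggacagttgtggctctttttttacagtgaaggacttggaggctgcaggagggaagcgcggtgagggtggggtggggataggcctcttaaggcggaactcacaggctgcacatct
Traf1, chr2:34961773-34962022, minus strand: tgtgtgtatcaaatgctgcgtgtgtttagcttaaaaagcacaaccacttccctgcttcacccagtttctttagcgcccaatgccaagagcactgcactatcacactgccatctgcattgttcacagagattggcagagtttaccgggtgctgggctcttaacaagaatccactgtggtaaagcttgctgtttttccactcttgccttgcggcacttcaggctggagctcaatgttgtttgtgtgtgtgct
Traf3, chr12:111166120-111166369, plus strand: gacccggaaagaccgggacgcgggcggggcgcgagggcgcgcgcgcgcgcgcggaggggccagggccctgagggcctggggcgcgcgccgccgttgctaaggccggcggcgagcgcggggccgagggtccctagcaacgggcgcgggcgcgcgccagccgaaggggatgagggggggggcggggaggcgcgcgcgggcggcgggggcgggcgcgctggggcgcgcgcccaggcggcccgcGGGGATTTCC

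In the 250 bases before the start, the NF-kB consensus is found in 7.25% of the 32851 RefSeq promoters of the table and TGANTCA in 6.75%, counting both strands. Of the 8 members with an entry in that table, Tnfaip3 and Traf3 held the consensus and Birc3, Traf1, Traf2, Traf5, Traf6 and Map3k14 held neither pattern in this window. In Tnfaip3 the consensus begins 125 and 12 bases before the start and TGANTCA begins 136 bases before it. That start is RefSeq's and lies inside the gene as GENCODE vM21 annotates it (chr10:19000910-19015657). The printed Tnfaip3 stretch and its matches therefore lie within the annotated gene, outside its exons. In Traf3 the consensus ends at the last base before the start. A match is a description of the letters in this window, and binding was not measured. Cd40 and Tradd are named only.

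Total counts ran from 12535166 to 21737184 per library, so that 3 counts in a library correspond to 0.138 to 0.2393 CPM (counts scaled to a total of 1000000 in each library). Trp53 was at 58.1 to 108.7 CPM in the 10 tumour libraries, Cdkn2a at 121.6 to 381.1 CPM and Myc at 456.6 to 2005 CPM. In the normal nasopharynx libraries these genes were at 55.2 to 135.9, 3.97 to 6.65 and 57.6 to 93.7 CPM. Counts over a whole gene do not show which allele or exon was read, so they check Myc but neither the Trp53 deletion nor the guide, and LMP1, a viral gene, was not analysed here. On the first principal component of the tumour libraries, with 56.3% of the variance, the LMP1 libraries stood at 97.8 and 87.2, Ctr 2 at 23.2 and the other 7 between -37.9 and -10.0. Epithelial markers (10 genes) summed to 950.2 and 1442 CPM in the LMP1 libraries and to 3063 to 5967 CPM in the other tumour libraries. Krt8 (294.8 and 416.1 CPM in LMP1) and Krt18 (308.1 and 406.3 CPM) overlapped with those, at 119.6 to 1479 and 311.2 to 1294 CPM. The remaining epithelial markers were lower in both LMP1 libraries than in every other tumour library. Krt5 was at 4.54 and 12.7 CPM in LMP1, at 19.8 CPM in Lung-Ctr 1 and at up to 1993 CPM elsewhere. Fibroblast markers (8 genes) summed to 83.4 and 40.8 CPM in LMP1 1 and 2, to 109.8 CPM in Ctr 2, and to at most 1.52 CPM in the Lung-Ctr and Lung-LMP1 libraries. Most of the first 3 sums was Col3a1, at 60.8, 24.8 and 95.2 CPM, followed by Dcn at 10.5, 9.13 and 10.2 CPM. In these libraries Col1a1 was at most 1.66 CPM and Col1a2 at most 0.432 CPM. In the tumour libraries lymphocyte markers (9 genes) summed to 0.266 to 2.06 CPM and macrophage and dendritic cell markers (9 genes) to 8.50 to 44.1 CPM. The highest sums of both lists were in Ctr 1. Most of the macrophage sum was Cd68, at 7.10 to 40.2 CPM, while Ptprc was at most 0.216 CPM and Csf1r at most 0.627 CPM. In bulk RNA, fewer cells of a type and less RNA per cell cannot be told apart.

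The tables of tumour and of normal organoids use different gene identifiers, so tests were made within each. Beside Ctr, the authors deposited 3 normal columns in a comparison named for normal nasopharynx, with column headings that read normal lung. The term comparator is used for these columns. Across 22573 shared symbols their log2 CPM correlated with the same-numbered Normal_nasopha library at r = 0.9805 to 0.9817. With the other-numbered Normal_nasopha libraries r was 0.9427 to 0.9550, and with the Normal_lung libraries 0.8830 to 0.8897. Whether the columns are the Normal_nasopha libraries counted anew was not tested, so the values of both sets below may not be independent. Those correlations run across genes, not replicates, and the columns were not counted as further replicates of a normal tissue. Every comparison of a tumour group with the comparator below rests on these columns and all 4 share them.

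Per kilobase of annotated exon, which puts genes on a common scale, Traf3 had the highest mean level in each of the 4 tumour groups and Cd40 the lowest. Traf3 was at 15.4 ± 2.0 CPM per kb (SD, n = 3) in Ctr and at 17.8 ± 3.09 (SD, n = 3) in Lung-LMP1. In single libraries Tnfaip3 was above Traf3 in Ctr 1 (13.75 against 13.45 CPM per kb), Lung-Ctr 1 (20.97 against 19.78) and Lung-LMP1 2 (21.12 against 15.04). In Ctr the next levels were Tnfaip3 at 11.2 ± 2.20, Traf6 at 10.9 ± 1.06 and Tradd at 10.9 ± 1.84 CPM per kb (SD, n = 3), neighbours that did not differ beyond their spread. Birc3 at 7.69 ± 3.88 and Traf2 at 7.26 ± 0.470 followed, then Map3k14 at 2.45 ± 0.577 and Traf5 at 2.34 ± 1.60, again with overlapping ranges within each pair. Traf1 at 0.168 ± 0.0603 and Cd40 at 0.143 ± 0.231 CPM per kb came last. In LMP1 Tnfaip3 stood at rank 6 of the 10, at 4.89 ± 0.454 CPM per kb (SD, n = 2). In both normal tissues Tradd ranked first, at 15.2 ± 2.43 CPM per kb in Normal_nasopha and 14.5 ± 1.24 in Normal_lung (SD, n = 3 each). Traf1 had rank 10 in Normal_nasopha at 0.0766 ± 0.105 CPM per kb and rank 4 in Normal_lung at 6.02 ± 1.43.

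**Figure D1:**
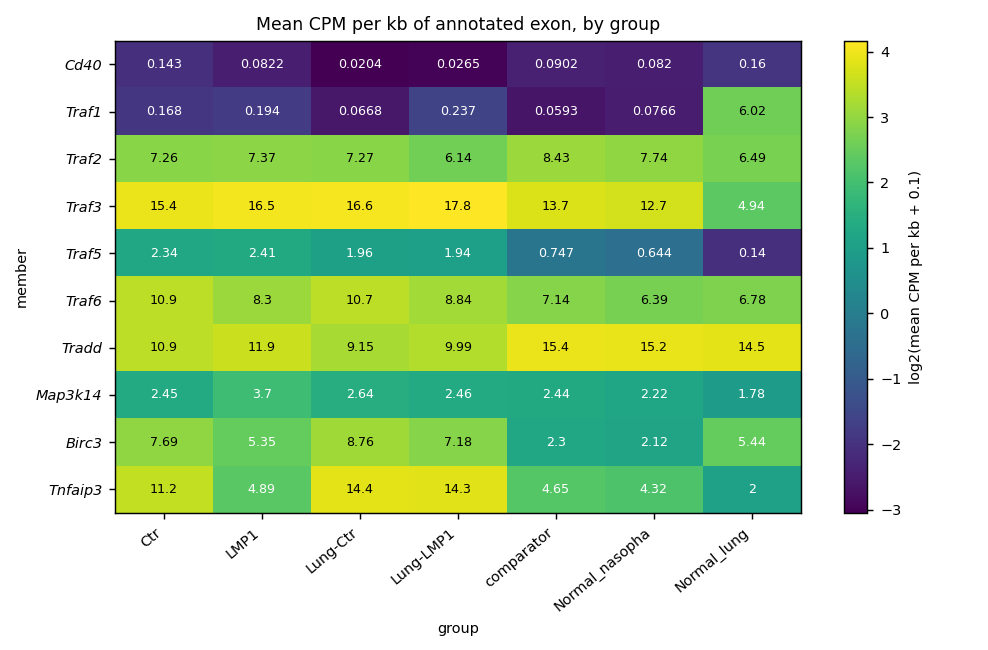
Mean CPM per kb of annotated exon for each member (rows) in each group (columns), printed in the cells and coloured on a log2 scale. Traf3 has the highest mean of the 10 in every tumour group, though not in every library, and Traf1 is low everywhere but in Normal_lung, where it is at 6.02.

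Cd40, the receptor whose signal LMP1 resembles, was close to undetected. The Ctr libraries held 19, 0 and 1 counts, the LMP1 libraries 4 and 5, the Lung-Ctr libraries 2 and 0, and the Lung-LMP1 libraries 4, 0 and 0. In CPM the highest tumour library was Ctr 1 at 1.40, and the other 9 tumour libraries were between 0 and 0.338. The comparator held 1, 12 and 3 counts and Normal_lung 7, 23 and 4. Cd40 did not pass the filter on low counts among the tumour libraries or among the normal tissues. It was tested only beside the comparator, where no group was called. Ctr 1, the library with most Cd40, also had the highest macrophage and dendritic cell marker sum of the 10 tumour libraries, at 44.1 CPM against 8.50 to 22.2 CPM, with Cd68 at 40.2 CPM. Its lymphocyte marker sum was the highest as well, at 2.06 CPM against 0.266 to 1.12 CPM, with Cd79b at 1.69 CPM and Ptprc at 0. The part of these markers in the Cd40 counts was not tested.

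Traf1, an adaptor that binds TRAF2 and is itself induced by NF-kB, was low in all tumour organoids. It was at 1.1, 2.09 and 1.25 CPM in Ctr against 1.33 and 2.10 CPM in LMP1, with 1.04 and 0.133 CPM in Lung-Ctr against 1.69, 2.51 and 2.07 CPM in Lung-LMP1. The Lung-LMP1 libraries lay above both Lung-Ctr libraries, and the LMP1 and Ctr ranges overlapped. Lung-LMP1 was 3.66-fold above Lung-Ctr in the fit, a log2 fold change of 1.87 ± 0.794 (SE) with an edgeR adjusted p of 0.2778. The Lung-Ctr counts behind this value were 15 in replicate 1 and 2 in replicate 2, the latter below the 3-count floor. Across both genotypes the log2 fold change of TMPL against TMP was 1.003 ± 0.619 (SE, edgeR adjusted p = 0.3045). Neither passed an adjusted p of 0.05, the threshold used throughout.

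Among the members, Traf1 had the largest fold difference between the normal tissues. Normal_lung held 64.6, 39.6 and 55.2 CPM, and Normal_nasopha 1.74, 0.0920 and 0.194 CPM. The ranges did not overlap, and the 2 lowest nasopharynx libraries were at or near the 3-count floor. In the fit Normal_nasopha was 87.9-fold lower, a log2 fold change of -6.46 ± 0.955 (SE, edgeR adjusted p = 0.00332). The call was kept in all 10 alternatives run, with log2 fold changes from -8.67 to -5.95, and the authors' deposited table gives -6.49 with an adjusted p of 3.51e-14. Beside this, macrophage and dendritic cell markers (9 genes) summed to 1781 to 3034 CPM in Normal_lung and to 68.5 to 274.9 CPM in Normal_nasopha. Most of that sum was Lyz2, at 1663 to 2878 CPM in lung, a gene that alveolar type 2 cells express too. Cd68 went the other way, at 2.53 to 10.3 CPM in lung and 12.96 to 264 CPM in nasopharynx. The lung library with the most Csf1r (16.0 CPM), Adgre1 (34.0 CPM), Lyz2, Cd68, Itgam and Fcgr1, replicate 2, had the lowest Traf1. Cd74 (102.2, 77.4 and 68.5 CPM) and H2-Ab1 (6.16, 4.70 and 2.53 CPM) were instead highest in lung replicate 1, which had the most Traf1. In nasopharynx Cd74 was at most 1.45 CPM. Itgax was at most 0.0971 CPM in lung. Lymphocyte markers (9 genes) summed to 5.61 to 10.7 CPM in lung and to 0.23 to 2.18 CPM in nasopharynx, and the alveolar marker Sftpc was at 37317 to 45810 CPM in lung. Which of these cells carries the Traf1 RNA was not tested.

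Against the comparator, at 1.45, 0 and 0.120 CPM, no tumour group was called for Traf1. The value turned on comparator 1: without it the log2 fold change was 4.38 for Ctr (edgeR adjusted p = 0.0138), 4.55 for LMP1 (0.0159) and 4.98 for Lung-LMP1 (0.00862), with 0 and 2 counts in the other 2 comparator libraries. Comparator 1 had the highest lymphocyte marker sum of the 3 comparator libraries, at 1.99 CPM, and the lowest macrophage and dendritic cell marker sum, at 79.7 CPM. That low sum came from Cd68, at 14.2 CPM against 288.2 and 98.4 CPM in comparators 2 and 3. Lyz2 (47.6 against 9.98 and 37.7 CPM), Adgre1 (3.50 against 0.113 and 0.241 CPM), Itgam, Csf1r and Cd74 were instead highest in comparator 1, and H2-Ab1 in comparator 3. The part of these markers in the Traf1 level was not tested.

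Traf2, the adaptor that brings the ubiquitin ligases cIAP1 and cIAP2 to the receptor complex, was among the steadiest members. It was at 34.4, 39.2 and 37.4 CPM in the Ctr libraries, at 37.2 and 37.96 CPM in the LMP1 pair, at 32.8 and 41.4 CPM in the Lung-Ctr pair and at 34.8, 30.1 and 29.1 CPM in the Lung-LMP1 libraries. All tumour libraries fell between 29.1 and 41.4 CPM, and the groups overlapped except for Lung-LMP1 and LMP1. The largest log2 fold change among tumour groups was -0.19 ± 0.173 (SE), for Lung-LMP1 against Lung-Ctr, with an edgeR adjusted p of 0.6065. Normal_nasopha held 30.4 to 46.1 CPM and Normal_lung 29.9 to 36.2, which overlapped.

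Traf3 restrains noncanonical NF-kB by keeping NIK degraded. It was among the most abundant members in all tumour groups: 98.9, 112.4 and 128.1 CPM in Ctr against 115.3 and 126.7 CPM in LMP1, with 145.4 and 98.8 CPM in Lung-Ctr against 155.5, 110.5 and 127.6 CPM in Lung-LMP1. These ranges all overlapped, and the log2 fold change of TMPL against TMP was 0.12 ± 0.152 (SE, edgeR adjusted p = 0.6443). The comparator was more spread, at 104.5, 140.8 and 57.2 CPM, and no tumour group differed from it by the test. Between normal tissues Traf3 was higher in nasopharynx: 97.3, 131.0 and 51.9 CPM against 32.9, 39.9 and 36.1 CPM in lung. The ranges did not overlap, and the log2 fold change was 1.22 ± 0.334 (SE, edgeR adjusted p = 0.0314). That call was kept in 4 of 10 alternatives and in 1 of the 6 fits that leave a library out, with adjusted p-values up to 0.1107. The authors' deposited table gives 1.17 with an adjusted p of 0.0104.

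Traf5, an adaptor with much of TRAF2's structure, was at 17.9, 10.8 and 3.34 CPM in the Ctr libraries, at 11.8 and 10.2 CPM in the LMP1 pair, at 8.84 and 9.03 CPM in the Lung-Ctr pair and at 7.25, 11.6 and 7.74 CPM in the Lung-LMP1 libraries. The Ctr libraries spanned 5.37-fold and enclosed all other tumour libraries. The comparator held 3.38, 1.93 and 4.93 CPM, below every tumour library but Ctr 3. Ctr was called higher than the comparator, with a log2 fold change of 1.55 ± 0.535 (SE, edgeR adjusted p = 0.0435), although its range overlapped. LMP1 (1.64 ± 0.578, adjusted p = 0.0548), Lung-LMP1 (1.41 ± 0.534, 0.0635) and Lung-Ctr (1.36 ± 0.578, 0.0994) had similar values that missed the threshold in the same edgeR fit. The Ctr call was kept in 4 of 12 alternatives, and without Ctr 1 the value was 0.96 (adjusted p = 0.1798). In Normal_lung Traf5 was the lowest member per kilobase, at 0.149, 1.19 and 0.583 CPM against 2.71, 1.84 and 4.27 CPM in Normal_nasopha. These ranges did not overlap, but the log2 fold change of 2.05 ± 0.708 (SE) had an edgeR adjusted p of 0.0662. The authors' deposited table gives 2.03 with an adjusted p of 0.0205.

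Traf6 links LMP1 as well as IL-1 and Toll-like receptors to the kinase TAK1. In CPM by total count it was the member that separated the genotypes in every library, as 9.87% of all 13460 genes tested did. Whether the separation holds on the scaling used in the fit was not tested. TMP organoids held 76.2, 89.4 and 91.7 CPM (Ctr) and 94.2 and 75.3 CPM (Lung-Ctr). TMPL organoids held 68.7 and 62.1 CPM (LMP1) and 70.1, 67.8 and 71.2 CPM (Lung-LMP1), all below the lowest TMP library. The gap between the nearest libraries, 71.2 and 75.3 CPM, was small against the spread within TMP. TMPL was 1.25-fold lower in the fit, with a log2 fold change of -0.32 ± 0.112 (SE, edgeR adjusted p = 0.0901), which missed the threshold. DESeq2 gave -0.34 with an adjusted p of 0.0256. For LMP1 against Ctr alone the value was -0.41 ± 0.158 (SE, edgeR adjusted p = 0.1046). The comparator held 48.9, 72.8 and 47.1 CPM, Normal_nasopha 43.2, 65.8 and 42.1 CPM and Normal_lung 55.0, 50.0 and 55.3 CPM. Ctr was 1.44-fold above the comparator (log2 fold change 0.53 ± 0.195, SE, edgeR adjusted p = 0.0553). Without comparator 2 the value was 0.75 (adjusted p = 0.00801).

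Tradd, the death domain adaptor that LMP1 uses beside the TRAFs, was at 17.6, 19.0 and 24.1 CPM in Ctr against 21.5 and 22.7 CPM in LMP1, with 16.0 and 18.1 CPM in Lung-Ctr against 19.6, 16.9 and 19.4 CPM in Lung-LMP1. The comparator held 27.6, 33.7 and 24.8 CPM, above every tumour library. Lung-Ctr was called lower than the comparator, by 1.71-fold (log2 fold change -0.78 ± 0.239, SE, edgeR adjusted p = 0.0341). Ctr (-0.58 ± 0.209, 0.0517), Lung-LMP1 (-0.58 ± 0.209, 0.0531) and LMP1 (-0.43 ± 0.236, 0.1907) were not called in that fit. Once transcript length and GC content were corrected for, the Lung-Ctr value was -0.04 (edgeR adjusted p = 0.928), while the median of all genes moved from -0.04 to 0.07. Normal_nasopha (27.6, 33.2 and 24.2 CPM) and Normal_lung (24.5, 28.9 and 28.0 CPM) overlapped.

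Map3k14, which encodes NIK, was highest among tumour organoids in LMP1, at 22.2 and 26.3 CPM. Ctr held 16.2, 19.8 and 12.2 CPM, Lung-Ctr 17.3 and 17.2, and Lung-LMP1 15.9, 14.3 and 18.2. Both LMP1 libraries lay above the other 8 tumour libraries. They are also the libraries that stood apart on the first principal component, with the lowest epithelial marker sums (950.2 and 1442 CPM). Their fibroblast marker sums, mostly Col3a1, were 83.4 and 40.8 CPM. The part of these differences in the Map3k14 level was not tested. LMP1 was 1.49-fold above Ctr (log2 fold change 0.58 ± 0.236, SE) with an edgeR adjusted p of 0.1252, and Lung-LMP1 against LMP1 was at -0.46 ± 0.237 (SE, edgeR adjusted p = 0.2512). The comparator ran from 8.90 to 27.2 CPM, a range wider than that of all tumour libraries, and without comparator 2 LMP1 was called above it (log2 fold change 1.099, edgeR adjusted p = 0.0229), and Normal_nasopha (8.25 to 23.9 CPM) enclosed Normal_lung (9.50 to 13.4 CPM).

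**Figure D2:**
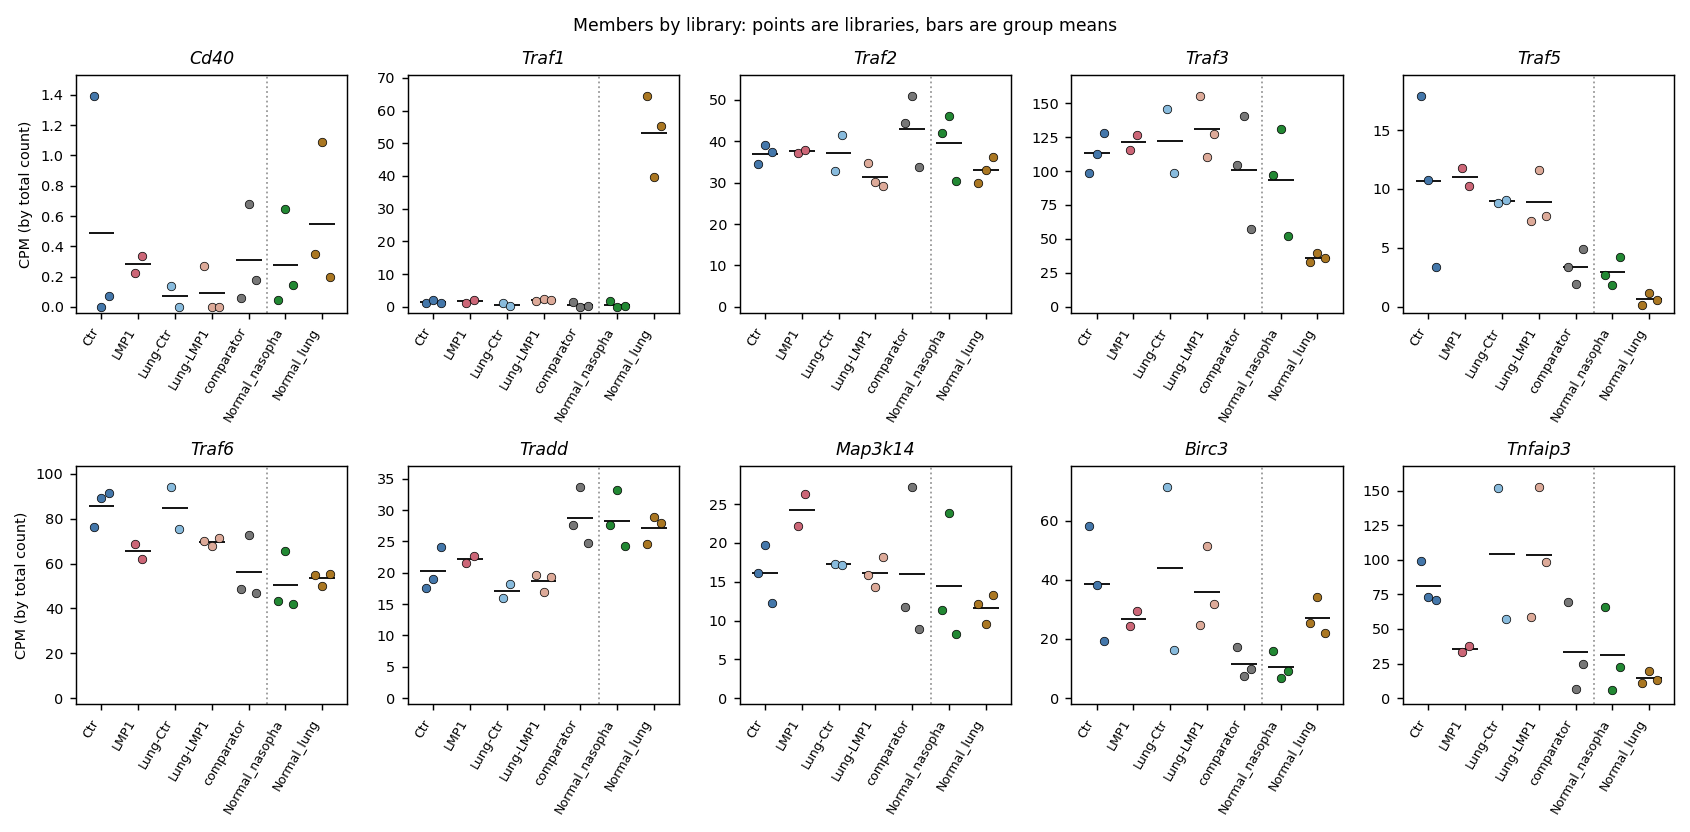
CPM by total count of each member (panels, linear axes of different height) in each library (points) of the 7 sets of columns, with group means as bars. The dotted line separates the table of normal tissues from the others. Traf6 in the 5 TMPL libraries lies below all 5 TMP libraries, Traf1 is high only in Normal_lung (39.6 to 64.6), and Birc3 and Tnfaip3 are widely spread within Ctr, Lung-Ctr and Lung-LMP1.

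Birc3, the gene of the ubiquitin ligase cIAP2, is both a TRAF2 partner and a classical NF-kB target. It was at 58.1, 38.2 and 19.2 CPM in the Ctr libraries, at 24.3 and 29.3 CPM in the LMP1 pair, at 71.4 and 16.4 CPM in the Lung-Ctr pair and at 24.7, 51.3 and 31.8 CPM in the Lung-LMP1 libraries. The spread within Ctr (3.02-fold) and Lung-Ctr (4.35-fold) was larger than any difference between tumour groups. The log2 fold change of TMPL against TMP was -0.39 ± 0.429 (SE, edgeR adjusted p = 0.5808). The comparator held 17.4, 7.43 and 9.80 CPM. Of the 10 tumour libraries 9 lay above its highest value, the exception being Lung-Ctr 2.

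Birc3 was called higher than the comparator in 3 of the 4 tumour groups. The log2 fold change was 1.64 ± 0.561 in Ctr (SE, edgeR adjusted p = 0.0416), 1.90 ± 0.606 in Lung-Ctr (0.0394) and 1.67 ± 0.561 in Lung-LMP1 (0.0422), with 1.16 ± 0.604 in LMP1 (0.1665). These calls sat close to the threshold: they were kept in 7 of 12, 5 of 11 and 6 of 12 alternatives. The Lung-Ctr value rested on replicate 1, since without it the log2 fold change was 0.48 (adjusted p = 0.599). Without Ctr 1, the Ctr value was 1.24 (adjusted p = 0.1347). The authors' deposited table gives 1.68 for Ctr with an adjusted p of 0.00777. Between normal tissues Birc3 was lower in nasopharynx, at 15.9, 6.95 and 9.02 CPM against 25.3, 34.3 and 22.2 CPM in lung, and the ranges did not overlap. The log2 fold change was -1.51 ± 0.349 (SE, edgeR adjusted p = 0.0174), kept in 7 of 10 alternatives and lost without Normal_lung 1, Normal_lung 2 or Normal_nasopha 3 (adjusted p up to 0.067). The authors' deposited table gives -1.55 with an adjusted p of 0.000792.

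Tnfaip3 encodes A20, the ubiquitin-editing enzyme that NF-kB induces and that in turn damps the pathway. It was at 99.4, 73.2 and 70.6 CPM in Ctr but at 33.0 and 37.7 CPM in LMP1, the lowest 2 of the 10 tumour libraries. Lung-Ctr held 151.5 and 57.1 CPM and Lung-LMP1 58.4, 152.6 and 98.4 CPM. LMP1 overlapped with no other tumour group. LMP1 was 2.32-fold below Ctr, a log2 fold change of -1.22 ± 0.471 (SE, edgeR adjusted p = 0.1077), and Lung-LMP1 was 3.19-fold above LMP1, at 1.67 ± 0.480 (SE, edgeR adjusted p = 0.0604). Neither passed the threshold, and the 2 comparisons share the LMP1 libraries. With DESeq2 both did (adjusted p = 0.0359 and 0.00354), as they did in edgeR with only the groups compared in the fit (0.0284 and 0.0341). The authors' deposited table gives -1.22 with an adjusted p of 2.06e-05 and 1.67 with 0.000262. The genotype effect on Tnfaip3 was 0.03 ± 0.450 (SE, edgeR adjusted p = 0.9789) between the Lung groups. The interaction, which tests whether the effect differed with the Lung prefix, was 1.25 ± 0.650 (SE, edgeR adjusted p = 0.4008). The LMP1 libraries are also those with the lowest epithelial marker sums, given above, and the part of this in the Tnfaip3 value was not tested.

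Against the comparator (69.8, 6.30 and 24.8 CPM, an 11.1-fold spread) no tumour group was called for Tnfaip3. Lung-LMP1 was at 1.65 ± 0.688 (SE, edgeR adjusted p = 0.0863), Lung-Ctr at 1.60 ± 0.741 (0.1255), Ctr at 1.18 ± 0.680 (0.1931) and LMP1 at 0.02 ± 0.752 (0.9878). Without comparator 1 the first 3 were called, at 2.73 (edgeR adjusted p = 0.00904), 2.70 (0.0135) and 2.29 (0.0171). The comparator's epithelial marker sums had the same order, at 18570, 5850 and 12524 CPM, as had Krt5 (8075, 2090 and 5913 CPM), Krt14 (6344, 697 and 3126 CPM), Krt8 and Grhl2. Epcam (529, 363 and 635 CPM), Cdh1 (705, 777 and 632 CPM), Krt18, Krt15, Trp63 and Esrp1 had other orders. The part of these markers in the Tnfaip3 spread was not tested. Normal_nasopha held 65.5, 5.84 and 22.4 CPM of Tnfaip3 and Normal_lung 11.0, 19.5 and 12.8 CPM, which overlapped.

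Birc3 and Tnfaip3, both NF-kB targets, were high in the same tumour libraries, and so was Tnf, a further target and a ligand of TNF receptors. Lung-Ctr 1, Ctr 1 and Lung-LMP1 2 were the top 3 of the 10 libraries for each of the 3 genes. Tnf was at 62.3, 88.5 and 102.9 CPM in those libraries and between 9.35 and 28.6 CPM in the other 7. In each of the 4 groups the library highest in Birc3 was also the highest in Tnfaip3 and in Tnf. Traf1, named above as a target of NF-kB too, was not high in all 3 libraries. It was at 1.04 CPM in Lung-Ctr 1 and at 1.1 CPM in Ctr 1, the lowest Ctr library, with 15 counts in each. In Lung-LMP1 2 Traf1 was at 2.51 CPM, its highest value among tumour libraries. Cd40, also a target, was close to undetected. Over the 10 libraries, log2 CPM correlated at r = 0.73 for Birc3 with Tnfaip3, 0.90 for Birc3 with Tnf and 0.82 for Tnfaip3 with Tnf, given as a description because these libraries share their groups. The replicates concerned carry both genotypes, with and without the Lung prefix. Epcam, an epithelial marker, was also highest in the same 3 libraries, at 1698, 1153 and 1358 CPM, and between 108.1 and 912.6 CPM in the others. Over the 10 libraries Epcam correlated with Tnfaip3 at r = 0.94, above the values of Tnfaip3 with Birc3 and with Tnf, and with Birc3 at r = 0.55. Krt5, a basal keratin, was at 19.8, 679.9 and 570.6 CPM in the 3 and reached 1993 CPM in Lung-Ctr 2. The part of these marker levels in the shared pattern was not tested. The promoter of Tnfaip3 printed above holds the NF-kB consensus and that of Birc3, in the same window, does not.

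**Figure D3:**
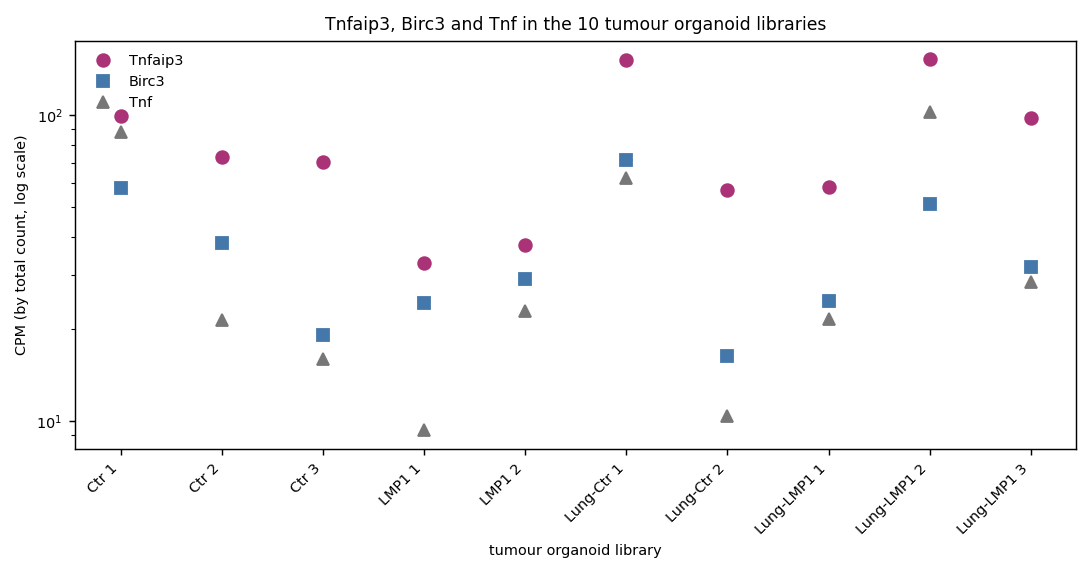
CPM by total count, on a log axis, of Tnfaip3 (circles), Birc3 (squares) and Tnf (triangles) in each of the 10 tumour organoid libraries. All 3 genes are highest in Ctr 1, Lung-Ctr 1 and Lung-LMP1 2, and Tnfaip3 is lowest in the LMP1 libraries (33.0 and 37.7).

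Counted over the members, none of the 9 tested was called in any comparison between tumour groups. Over all 13460 genes the same edgeR test called 16.4% for LMP1 against Ctr (7.36% higher, 9.06% lower) and 10.1% for Lung-LMP1 against LMP1 (6.17% higher, 3.95% lower). It called 12.4% for TMPL against TMP (7.22% higher, 5.13% lower) and 0.892% for the interaction (0.81% higher, 0.0817% lower). It called 0% for Lung-LMP1 against Lung-Ctr and 0% for Lung-Ctr against Ctr, where 2295 and 717 genes had an unadjusted p under 0.05 and DESeq2 called 881 and 40 genes. At an unadjusted p under 0.05 stood 3 members for LMP1 against Ctr (Traf6, Map3k14 and Tnfaip3), 1 for Lung-LMP1 against Lung-Ctr (Traf1), 1 for Lung-LMP1 against LMP1 (Tnfaip3) and 1 for TMPL against TMP (Traf6). Of all 13460 genes, 4524, 2295, 3689 and 4076 stood there in these 4 comparisons, in the same order. DESeq2 called 1 member, Tnfaip3, in LMP1 against Ctr and in Lung-LMP1 against LMP1, 1, Traf6, in TMPL against TMP, and 0 in the other 3 comparisons. Over all genes DESeq2 called 3576 of 13102, 2537 of 13363 and 3135 of 12841 in the first 3, and 926 of 13102 for the interaction. The median log2 fold change of the members was 0.03 for LMP1 against Ctr and 0.03 for TMPL against TMP, beside -0.01 and -0.05 over all genes tested. Ranges that did not overlap were found for 3 of 10 members in LMP1 against Ctr (56.3% of all genes) and for 4 of 10 in Lung-LMP1 against LMP1 (55.8% of all genes). They were found for 2 of 10, Traf1 and Traf6, in Lung-LMP1 against Lung-Ctr (33.4%), for Traf1 in Lung-Ctr against Ctr (14.5%) and for Traf6 in TMPL against TMP (9.87%). Each of these shares of members is below the share of all genes, but for TMPL against TMP, where 1 of 10 is close to it.

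**Figure D4:**
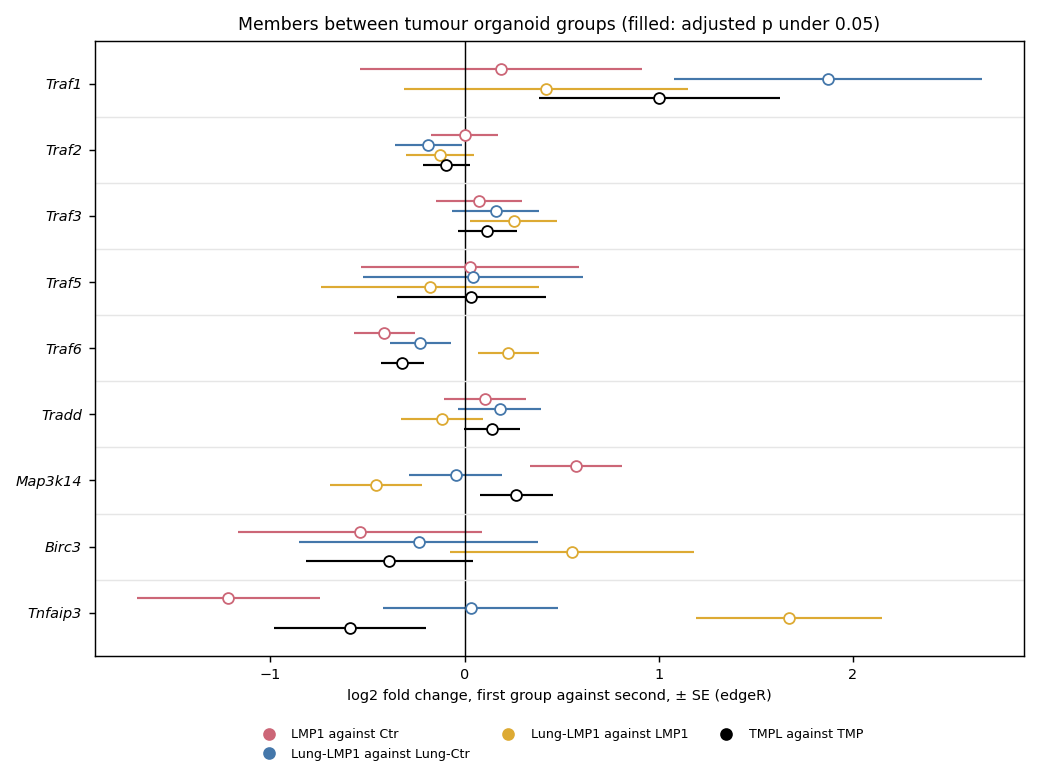
log2 fold change with SE of the 9 tested members for TMPL against TMP, LMP1 against Ctr, and Lung-LMP1 against both LMP1 and Lung-Ctr, from edgeR, with open points for an adjusted p of 0.05 or more. All points are open, and in these 4 comparisons the values farthest from 0 are Traf1 in Lung-LMP1 against Lung-Ctr (1.87) and Tnfaip3 in Lung-LMP1 against LMP1 (1.67) and in LMP1 against Ctr (-1.22). Lung-Ctr 2 held only 2 counts of Traf1.

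Against the comparator, 2 of 10 members, both higher, were called in Ctr, where 35.1% of 14096 genes were called (16.1% higher, 19% lower). None was called in LMP1 (28.2% of genes, 13.7% higher and 14.5% lower). In Lung-Ctr 1 member was higher and 1 lower (27.4% of genes, 13.2% higher and 14.2% lower), and in Lung-LMP1 1 was higher (32% of genes, 14.6% higher and 17.4% lower). Ranges did not overlap for 4 of 10 members in Ctr (44.8% of genes), 3 in LMP1 (61.9%), 3 in Lung-Ctr (50.3%) and 4 in Lung-LMP1 (46.6%). In LMP1 1 member had an unadjusted p under 0.05 in edgeR, beside 5929 of 14096 genes. DESeq2 called 1 member there, beside 4960 of 13899 genes. The members' share was below that of all genes in all 4 groups. Between the normal tissues 3 of 9 tested members were called (31.1% of 15886 genes, 15.4% higher and 15.6% lower), a share close to the background. Of the 10 members 4 had ranges that did not overlap there, beside 53.1% of all genes.

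**Figure D5:**
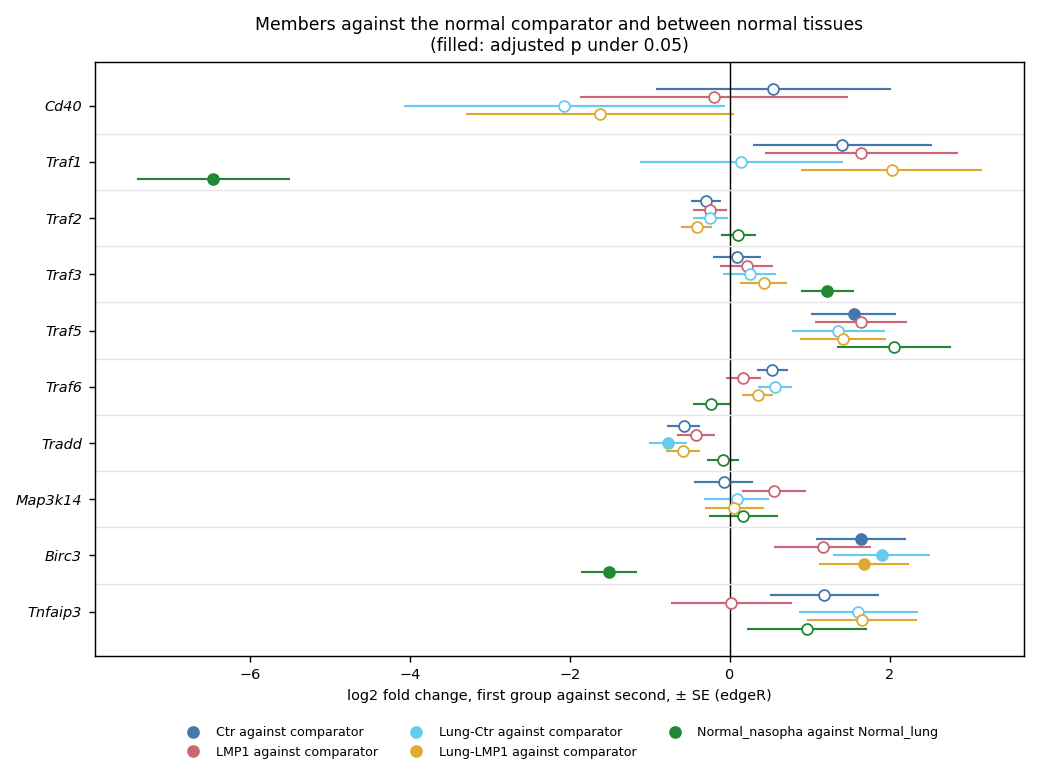
log2 fold change with SE of the members for each tumour group against the comparator and for Normal_nasopha against Normal_lung, from edgeR, with filled points for an adjusted p under 0.05. Filled points are Birc3 in 3 tumour groups (1.64 to 1.90), Traf5 in Ctr (1.55), Tradd in Lung-Ctr (-0.78) and, between tissues, Traf1 (-6.46), Traf3 (1.22) and Birc3 (-1.51).

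The pathway around the members was described with 7 lists of 108 further genes, of which 96 were tested in tumour organoids. For TMPL against TMP 7 were called higher and 6 lower, with a list median of -0.04 and 12.4% of all genes called. Of 16 tested receptors Ltbr, the lymphotoxin beta receptor that signals to NIK through TRAF3, was higher. TMP libraries held 39.9, 34.3 and 39.2 CPM (Ctr) and 40.5 and 36.9 CPM (Lung-Ctr), and TMPL libraries 70.2 and 76.9 CPM (LMP1) and 63.2, 66.7 and 52.7 CPM (Lung-LMP1). Every TMPL library lay above every TMP library, and the log2 fold change of 0.82 ± 0.119 (SE, edgeR adjusted p = 0.00572) was called in all 16 alternatives run. Both genotypes were nevertheless below the comparator, at 113.3 to 157.0 CPM, and Ltbr was called lower than it in all 4 tumour groups.

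Of the 11 NF-kB and IkB genes, Rela, Nfkbib and Bcl3 were higher in TMPL and none was lower. Rela, the p65 subunit of canonical NF-kB, held 45.5 to 70.8 CPM in the 5 TMP libraries and 89.1 to 132.0 CPM in the 5 TMPL libraries, which did not overlap. Its log2 fold change was 0.88 ± 0.138 (SE, edgeR adjusted p = 0.007), called in all 16 alternatives. Nfkbib, an inhibitor of NF-kB, was at 0.89 ± 0.181 (0.0155) and Bcl3, a nuclear partner of p50 and p52, at 0.97 ± 0.232 (0.0277), kept in 13 and 11 of 16 alternatives (Bcl3 was 0.57, not called, once transcript length and GC content were corrected for). Bcl3 was high in the LMP1 libraries (73.6 and 75.7 CPM) while Lung-LMP1 (26.4 to 35.0 CPM) overlapped with Ctr. Among ligands, Tnfsf13 (APRIL) was higher but low in level, with means of 0.959 and 0.0585 CPM. Of the other TRAF proteins and TRAF-binding adaptors, Traf4 was higher and Tifa, an adaptor of TRAF6, was lower.

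Among 19 ubiquitin enzymes and A20 partners, Ube2v1, a cofactor in the chain building of TRAF6, was higher (0.72 ± 0.114, SE, edgeR adjusted p = 0.00704, kept in all 16 alternatives). Xiap, Peli1 and Itch, all ubiquitin ligases, were lower, by 1.57-, 1.75- and 1.38-fold, and kept their calls in 13, 12 and 10 of 16 alternatives. With that correction Xiap, Peli1 and Itch were at log2 fold changes of -0.15, -0.38 and -0.15 and were not called. Of 13 IKK and TAK1 genes, Ikbkg (NEMO) and Tab3 were lower, by 1.56- and 1.61-fold, and Tab3 was not called with that correction (-0.36). None of the 11 genes of the JNK and p38 branch was called.

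For LMP1 against Ctr alone 10 of the 96 were higher and 8 lower, with a median of -0.14 beside -0.01 over all genes. Of all genes 7.36% were higher and 9.06% lower, so the lists' share was close to the 16.4% of all genes called. These are differences of the LMP1 libraries with the low epithelial marker sums, whose part was not tested. The receptors Ltbr and Tnfrsf1b, Rela, Bcl3 and Nfkbib, the adaptor Traf3ip2, Rbck1 and Ube2v1 of the ubiquitin machinery, Tnfsf13 and Map2k7 were higher. Il1a, Tnfsf9, Tnik, Xiap, Itch, Tax1bp1, Peli1 and Tab3 were lower. Tnfrsf1b, the TNF receptor that binds TRAF2 directly, was at 29.0, 31.3 and 12.9 CPM in Ctr and 73.8 and 71.7 CPM in LMP1 (log2 fold change 1.56 ± 0.398, SE, edgeR adjusted p = 0.0321). It was lower again in Lung-LMP1 (16.3, 27.4 and 12.5 CPM), with -1.82 ± 0.40 against LMP1 (SE, edgeR adjusted p = 0.0257). In that comparison 4 of the 96 were higher, Tnfrsf4, Tnfsf9, Tnik and Tab3, and 3 lower, Tnfrsf1b, Rbck1 and Bcl3, a share below the 10.1% of all genes called. None was called for the Lung-LMP1 against Lung-Ctr difference, for Lung-Ctr against Ctr or for the interaction, so a difference in the genotype effect with the Lung prefix was not shown for these genes.

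In Ctr 18 of the 96 were higher than the comparator and 11 lower (35.1% of all genes called), and in LMP1 10 were higher and 7 lower (28.2%). Lung-Ctr had 14 higher and 4 lower (27.4%), and Lung-LMP1 12 higher and 10 lower (32%). In all 4 groups the share of the lists was below that of all genes. Il1r1 was higher in all 4 groups, as were Atf2 and Nfkbie, an IkB protein. Tnf was higher in Ctr and in Lung-LMP1. Chuk (IKK alpha, the kinase that NIK activates) and Rel were higher in Ctr, Lung-Ctr and Lung-LMP1. Between normal tissues 7 of 97 were higher in nasopharynx and 13 lower, a share below the 31.1% of all genes called. The receptors Edar, Tnfrsf14, Tnfrsf11a, Tnfrsf1b, Il1r1 and Tnfrsf9 were lower in nasopharynx than in lung, and Eda2r and Tnfrsf12a higher.

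For each member called in at least 1 comparison, the genes most alike in level across the 10 tumour libraries were sought among 9227 genes by Pearson's r of log2 CPM. How high r runs by chance among so many genes was not tested, so the values are given as a description. For Birc3 the most alike were Slc45a3 (r = 0.97), Zfp697 (0.97) and Slc4a4 (0.95). For Traf3 they were Mfsd2a (0.96), Pepd (0.93) and Hk2 (0.93), and for Traf5 Sfi1 (0.96), Kdm5d (0.93) and Ccndbp1 (0.92). For Tradd they were Hmgn1 (0.96), Exosc3 (0.93) and Tmem120a (0.92), and for Traf1 Nt5c2 (0.93), Tsg101 (0.91) and Mthfd2l (0.90). Traf1 itself held only 2 to 41 counts in the tumour libraries.

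In the annotation of GRCm38 (GENCODE vM21) the members lie on 7 chromosomes: Traf1 at chr2:34941750-34961772 and Traf2 at chr2:25517982-25546940 on the minus strand, Traf6 at chr2:101678429-101701669 and Cd40 at chr2:165055627-165072948 on the plus strand. Traf5 is at chr1:191997205-192092559, Tradd at chr8:105258286-105264609, Birc3 at chr9:7848699-7873186, Tnfaip3 at chr10:19000910-19015657 and Map3k14 at chr11:103219762-103267472, all on the minus strand, and Traf3 at chr12:111166370-111267153 on the plus strand. Traf2 overlaps Gm13433, Traf3 overlaps 4930595D18Rik, Map3k14 overlaps 1700028N14Rik, and Traf5 overlaps Gm26879, Gstp-ps and Mir3473c. Whether the counting used strand is not given in the sources used here, so reads shared with these genes cannot be told apart.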

How the data were processed

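Polyadenylated RNA of 16 organoid libraries was sequenced. The submitters' processing notes name STAR, DESeq2, DESeq and mm10, without their roles. For the counting tool, the annotation and the versions nothing is given in the sources used here. Raw counts per gene, as the authors deposited them, were the input of every test. Tables deposited by the authors also hold log2 fold changes and p-values after adjustment, which are quoted only as theirs. A further 32 per-sample columns headed as TPM were not used. The 13 columns repeated between tables were identical.

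Counts were fitted with edgeR 4.0.16 in R 4.3.3: filterByExpr by group (minimum count 10), TMM scaling, robust dispersions, the quasi-likelihood F-test and Benjamini-Hochberg adjustment over all genes tested, with calls at an adjusted p under 0.05. The 10 tumour libraries shared one fit, with a term for the Lung prefix in TMPL against TMP, the comparator columns were added in another, and the normal tissues had their own. CPM printed per library use the total count. A floor of 3 counts covers counting error and nothing else. Since no label says whether replicates came from separate animals or cultures, p-values reflect the spread among these samples, which may be technical. Scripts were tested on simulated data.

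Alternatives were DESeq2 1.42.0, RLE size factors, no filter, leaving out each library, fits limited to the groups compared, a replicate block, dropping the Lung term, and smooth offsets for transcript length and GC (mgcv 1.9.3), known for 96.3% of 13460 tested genes. All 10 members are named in every comparison. Of each pathway list, up to 3 called genes per direction of smallest adjusted p may be named by rule, and other genes of a list (such as Peli1 in LMP1 against Ctr, Epcam and Krt5) were named after their values were seen. The members and lists were chosen with earlier results of these data known.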

Additional observations from a re-analysis of the deposited data

How the results depend on the processing

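The number of members called moved as follows. For Ctr against the comparator it was 2, and became 4 with DESeq2, 1 with the length and GC correction, 1 with no filter, 1 with only the groups compared, 0 with the replicate block, and 0 to 3 when a library was left out. For LMP1 against the comparator it was 0, and became 1 with DESeq2, 1 with the length and GC correction and 0 to 1 when a library was left out. For Lung-Ctr against the comparator it was 2, and became 1 with the length and GC correction, 0 with no filter, 0 with only the groups compared, 0 with the replicate block and 0 to 3 when a library was left out. For Lung-LMP1 against the comparator it was 1, and became 4 with DESeq2, 2 with RLE size factors, 0 with no filter and 0 to 3 when a library was left out. For LMP1 against Ctr it was 0, and became 1 with DESeq2 and 1 with only the groups compared. For Lung-LMP1 against LMP1 it was 0, and became 1 with DESeq2, 1 with the length and GC correction, 1 with only the groups compared and 0 to 1 when a library was left out. For TMPL against TMP it was 0, and became 1 with DESeq2. For Normal_nasopha against Normal_lung it was 3, and 1 to 2 when a library was left out. Smaller moves between these tissues were Traf5 gained with DESeq2 and Traf3 lost with the replicate block. Against the comparator they were Tradd gained in Ctr with RLE size factors and Traf6 gained in Lung-Ctr with DESeq2. The count stayed at 0 in every alternative for the interaction, for Lung-Ctr against Ctr and for Lung-LMP1 against Lung-Ctr. The cause of these moves was not tested, except that leaving a library out leaves fewer samples. Of 1216 member values under alternatives, 1145 kept their side of the threshold, 41 lost a call, 30 gained one and 0 reversed. Of the values not called in either fit, 86 changed sign.

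Labels do not pair the replicate numbers, and no comparison had every same-number correlation over 0.1 (for Lung-LMP1 against the comparator they ran from -0.0127 to 0.189). In none did every sample correlate best with its own number. With the block, the genes called over all genes went from 2210 to 483 for LMP1 against Ctr and from 1361 to 360 for Lung-LMP1 against LMP1. Over all genes, counts that moved by more than 1.5 times were, for LMP1 against Ctr, 3576 with DESeq2 and 1031 with the length and GC correction, and for Lung-LMP1 against LMP1 2537 with DESeq2 and 2682 with only the groups compared. For TMPL against TMP 1663 became 3135 with DESeq2, 785 with the block, 691 with the length and GC correction and 1045 without the Lung term. The interaction had 120, and 926 with DESeq2 and 2 with the block. Against the comparator, 3980 in LMP1 became 2517 with the block and 2288 with only the groups compared, 3861 in Lung-Ctr became 2502 with the length and GC correction and 168 with only the groups compared, and with only the groups compared 4944 in Ctr became 2917 and 4516 in Lung-LMP1 became 2937. The split of calls for TMPL against TMP, 972 higher and 691 lower, became 548 and 143 with the length and GC correction and 720 and 325 without the Lung term. That correction also turned 2061 higher and 2455 lower in Lung-LMP1 against the comparator into 2259 and 1642, and 1858 and 2003 in Lung-Ctr into 1447 and 1055. Without a library the count ran down to 25 for LMP1 against Ctr (LMP1 1 left out), 33 for Lung-LMP1 against LMP1 (LMP1 1), 263 for TMPL against TMP (LMP1 2) and 4 for the interaction (LMP1 1), where it also ran up to 331 (Ctr 2) and 274 (Lung-Ctr 2), and from 0 up to 33 for Lung-LMP1 against Lung-Ctr and 31 for Lung-Ctr against Ctr (Lung-Ctr 2). It ran down to 736 in LMP1 (LMP1 1), 2018 in Lung-Ctr (Lung-Ctr 1) and 2354 in Lung-LMP1 (Lung-LMP1 3) against the comparator, and to 2657 between the normal tissues (Normal_lung 3). A group left with 1 library was assumed to vary like the others. The 2 or 3 libraries per group limit the precision of every comparison. So do counts near the floor for Cd40 and for Traf1 in nasopharynx, the comparator and Lung-Ctr 2.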
